A study of Mus musculus with 14 samples.

Results

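The miR-379 to miR-410 cluster is the distal group of miRNAs in the imprinted Dlk1-Dio3 region of mouse chromosome 12, a region named for the paternally expressed genes at its ends. Its members were taken by name from a list of 34 mature miRNAs. Of these, 31 had a row under that name among the 1046 names of the count table, and the names miR-539, miR-679 and miR-412 occurred only with an arm suffix and are described separately. The table writes each name with the species prefix mmu, as in mmu-miR-379, mmu-miR-411, mmu-miR-134, mmu-miR-541 and mmu-miR-410, which is left off below. Names with a star, which mark the arm of a hairpin once taken as the minor product, were not members.

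Imprinted means that the copy of 1 parent is expressed, and here the miRNAs come from the maternal copy, as part of long noncoding transcripts that also carry Meg3, Rian and Mirg. The hairpins are cut from these transcripts, and each can give a mature miRNA from its 5′ arm (5p) and its 3′ arm (3p). The cluster is found in placental mammals and is best known from neurons, where its transcription follows activity and miR-134 limits the size of dendritic spines. Mice that lack the cluster are known to have metabolic defects around birth and altered anxiety-related behaviour.

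Each of 14 tissues of C57BL/6J mice, an inbred wild-type strain, was represented by a single small RNA library made from pooled total RNA of untreated animals as far as the labels say. Besides brain and cerebellum, these were the organs of digestion (oesophagus, stomach, pancreas, liver, small intestine and colon), heart and lung, kidney and spleen, and uterus and ovary. Harvest from 5 mice and RNA pooled from 10 are stated, and neither age nor sex is. There are therefore no replicates and no test between tissues, and every interval below is a 95% interval that covers counting error only.

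Read totals ran from 622132 in pancreas and 1134677 in cerebellum to 9341000 in small intestine. Levels are in RPM, the reads of a name per 1000000 miRNA reads of its library, and where a name has 0 reads its level could be as high as 3 reads, or 2.64 RPM in cerebellum, 0.564 in brain and 4.82 in pancreas. miR-143 alone held 98.7% of the reads labelled colon and 87.1% of those of ovary, so RPM of all other names is low there. Intestinal miR-215 stood at 51092 RPM in the library labelled uterus and at 4.50 RPM in that labelled colon, against the labels, so those libraries are named by their labels. The neural marker list (10 of 11 names found) summed to 91705 RPM in brain and 61760.3 in cerebellum, and to between 2.70 and 636 in the other 12 libraries.

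The members come from 28 hairpins on the plus strand. Their mature sequences lie within chr12:109709065-109743784 of GRCm38.p6, a stretch of 34.7 kb, by RefSeq's table. The count table names no genome build, and these positions serve only to order the members. Although the cluster is often assigned to the noncoding gene Mirg, only 7 of the 28 hairpins lie inside the Mirg gene as RefSeq draws it and 11 as GENCODE M21 draws it. The others lie upstream of it. A mature sequence was found in the RefSeq table for 28 of the 31 members, and where a name has no arm suffix its arm was taken from the history of miRNA names.

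The seed, bases 2 to 8 of a miRNA, is the part that pairs with target messages, and it is set in capitals below. The 28 sequences carried 28 different seeds, so cluster members share an origin and not a seed. Among them 3 pairs differ at only 1 seed position, and they are shown first because their members are compared below.
miR-379: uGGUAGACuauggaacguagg
miR-411: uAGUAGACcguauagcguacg
miR-376a: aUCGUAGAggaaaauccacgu
miR-376b: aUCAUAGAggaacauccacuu
miR-300: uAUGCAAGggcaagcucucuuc
miR-381: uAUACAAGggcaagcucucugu
Counted from the 5′ end, miR-379 and miR-411 differ in the seed by G2A, and miR-376a and miR-376b by G4A. The pair miR-300 and miR-381 also differs by G4A and otherwise only at the 3′ end, by U21G and C22U. How the authors' counting treated reads that fit more than 1 name is not given in the sources used here. Transcripts of the miR-376 hairpins, of miR-379 and of miR-411 are known targets of A-to-I RNA editing in brain, and whether edited reads were counted is not given either.

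Further sequences are shown for some of the members that differed between brain and cerebellum. They are not strictly the most extreme, since miR-154 lay slightly further toward brain than miR-369-3p and is not shown. The first 3 were higher in cerebellum and the other 7 higher in brain.
miR-134: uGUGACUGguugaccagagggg
miR-382: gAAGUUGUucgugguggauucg
miR-541: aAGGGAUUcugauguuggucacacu
miR-380-3p: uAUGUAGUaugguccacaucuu
miR-369-5p: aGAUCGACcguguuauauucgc
miR-369-3p: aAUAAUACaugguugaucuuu
miR-495: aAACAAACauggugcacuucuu
miR-496: uGAGUAUUacauggccaaucuc
miR-410: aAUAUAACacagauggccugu
miR-329: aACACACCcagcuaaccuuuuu
Outside the cluster, the RefSeq table holds the seed of miR-329 in miR-362-3p, that of miR-411 in miR-7229-5p, that of miR-410 in miR-344d-3p and miR-344e-3p, and that of miR-495 in miR-1192 and miR-12200-5p. Within the cluster, miR-379 shares its seed with miR-1193-5p, which is no member and had 1 read in brain.

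The cluster as a whole was highest in the nervous system. Its 31 members summed to 26836 RPM (26697 to 26976) in brain, which is 2.68% of that library, and to 21386 RPM (21118 to 21657) in cerebellum. Oesophagus followed with 3752 RPM (3700.0 to 3805), then stomach with 1277 RPM (1253 to 1301) and the library labelled uterus with 894 RPM (875 to 914). Lung held 642 RPM, pancreas 518, small intestine 399.7, heart 323, spleen 263, liver 188, ovary 107 and kidney 98.3. The lowest sum was 23.7 RPM (20.1 to 27.7), in the library labelled colon. In whole-tissue RNA, fewer cells of a type and less RNA per cell cannot be told apart.

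Against the median of the 12 non-neural libraries, 361 RPM, the summed level was 74.3-fold higher in brain and 59.2-fold higher in cerebellum. These folds depended on how libraries were scaled to each other, and when each library's 5 most abundant names were left out of its total they were 18.1 and 17.7. Brain and cerebellum stayed above the 12 others under all 4 scalings. Brain exceeded cerebellum by 1.25-fold (1.24 to 1.27) with totals, but with median-of-ratios factors the order turned, at 9820.2 and 9904 scaled RPM. The third place went to oesophagus under 3 scalings and, with median-of-ratios factors, to pancreas at 1607 against 1308 for oesophagus.

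**Figure D1:**
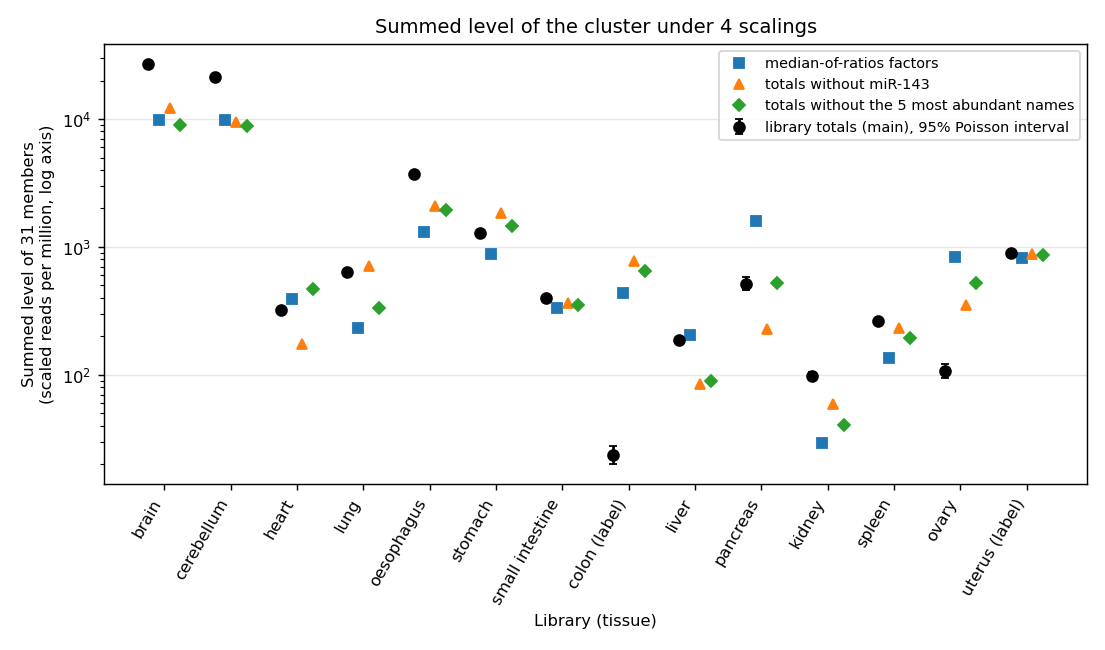
Each point is the summed level of the 31 members in 1 library, on a log axis of scaled RPM, with 1 marker per scaling and 95% Poisson bars on the library totals. Brain and cerebellum lie above the other 12 libraries under each scaling, while the library labelled colon moves from 23.7 RPM to 777 when miR-143 is left out of the totals.

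A member was counted as higher where its level was 4-fold or more above the one it was compared with, after 1 RPM had been added to both, and was itself no lower than 10 RPM. By this rule 27 of the 31 members were higher in brain than the median of the 12 non-neural libraries, beside 53.3% of the 418 names that reached 10 RPM anywhere. The other 4 members (miR-758, miR-494, miR-543 and miR-668) stayed under 10 RPM in every library and could not be counted. In cerebellum 17 members were higher, against 44.3% of all names. That count was 10 of 24, beside 30.1% of 369 names, when the 5 most abundant names were left out of the totals. It was 11 with a pseudocount of 10 RPM and 9 with a minimum of 50 RPM. The share of all names is not given for these last 2 settings. The median over the 31 members of the log2 difference from those 12 libraries was 5.78 in brain and 3.29 in cerebellum, beside 2.38 and 1.84 over all 418 names. Since most of the members reached 10 RPM through brain, no weight is put on the share of members that did so.

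In brain 25 of the 27 members at 10 RPM or more exceeded each of the 12 non-neural libraries, beside 51.0% of all names, and in cerebellum 17 did, beside 43.5%. The exceptions in brain were miR-299, at 26.9 RPM against 41.9 in oesophagus, and miR-485, at 11.7 against 13.3 there. Of the 27, 20 had their highest level in brain, beside 31.8% of names, and of all 31 members 22 did, 8 were highest in cerebellum and miR-299 was highest in oesophagus. Brain was thus the peak for most members, but not for all. All 27 members reached 10 RPM in brain and only 17 did in cerebellum, so the minimum level favours brain in the counts out of 27. No weight is put on how those counts compare with the shares of all names.

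**Figure D2:**
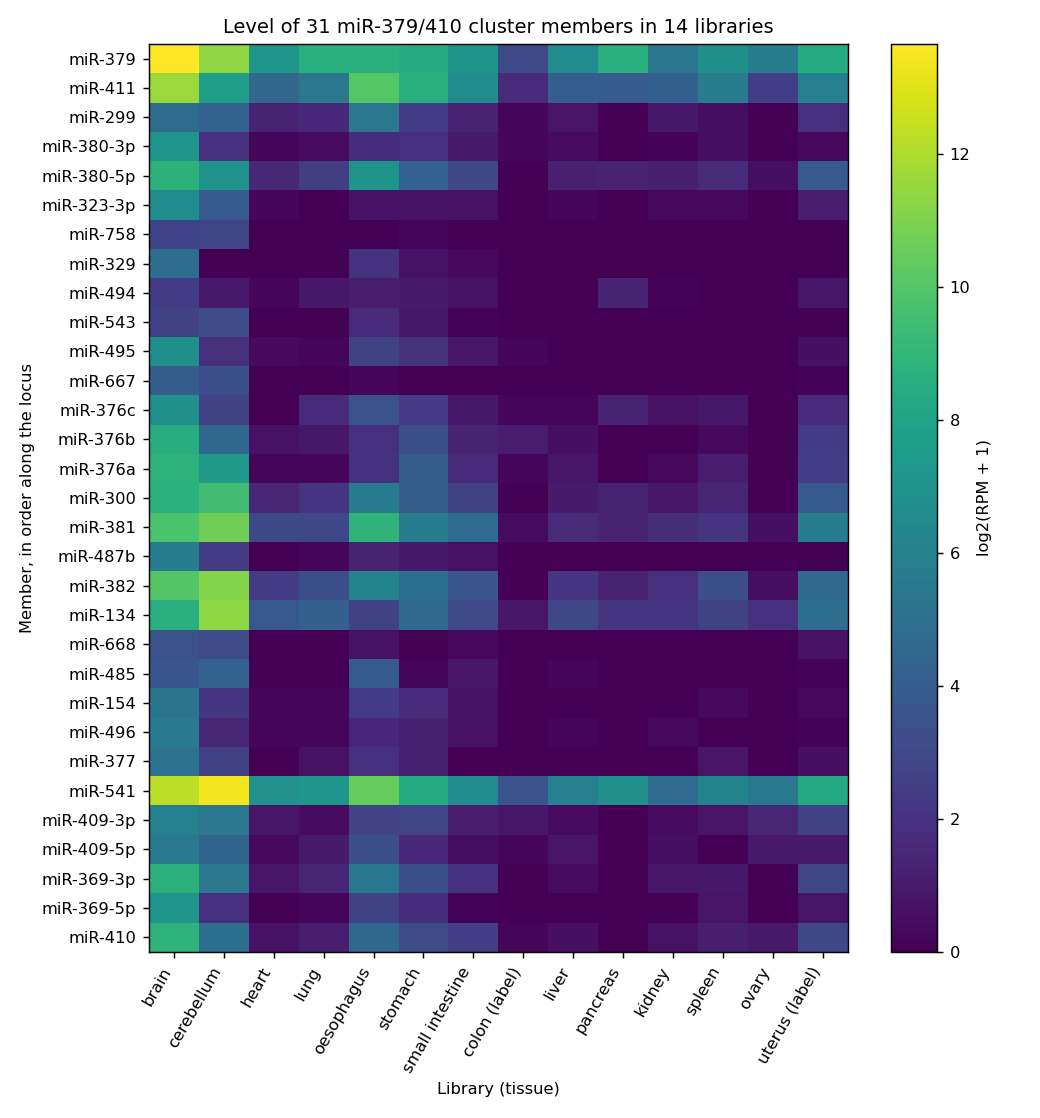
Rows are the 31 members in order along the locus, columns are the 14 libraries, and colour gives log2(RPM + 1). The brain column is bright along nearly its whole length, the cerebellum column is bright at miR-379, miR-300, miR-381, miR-382, miR-134 and miR-541, and miR-379 and miR-541 form the brightest rows outside the nervous system, with miR-411.

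A few names carried most of the reads. miR-379, the first hairpin of the cluster, reached 12873 RPM (95% interval 12777 to 12970.1) in brain and 2695 RPM in cerebellum. Outside the nervous system it stood at 412 in oesophagus, 405 in lung, 378 in pancreas, 349 in stomach and 343 in the uterus-labelled library. Its other levels were 150.4 in heart, 134 in small intestine, 111 in spleen, 95.7 in liver, 52.0 in ovary, 40.1 in kidney and 7.49 in the colon-labelled library. All 12 non-neural libraries lay below cerebellum for miR-379, and brain was 4.78-fold (4.61 to 4.95) above cerebellum.

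miR-541, near the distal end, had the opposite order of the neural libraries. It reached 10731 RPM (95% interval 10541 to 10923) in cerebellum and 5010 RPM in brain, 2.14-fold (2.10 to 2.19) apart. The next levels were 1379 in oesophagus, 337 in stomach and 322 in the uterus-labelled library. The others were 143 in lung, 118 in heart, 113 in pancreas, 93.8 in small intestine, 69.4 in spleen, 58.0 in liver, 42.8 in ovary, 26.1 in kidney and 10.2 in the colon-labelled library. Oesophagus thus stood well above the other 11 non-neural libraries for this miRNA, and below both neural ones.

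miR-411, the neighbour of miR-379, was strong in brain and weak in cerebellum. It reached 3104 RPM (95% interval 3057 to 3152) in brain, 1048 RPM in oesophagus and 381 in stomach, with 191 in cerebellum. Its remaining levels were 94.4 in small intestine, 59.0 in the uterus-labelled library, 54.4 in spleen, 41.6 in lung, 21.8 in heart, 17.3 in kidney, 15.6 in liver, 14.5 in pancreas, 4.85 in ovary and 2.10 in the colon-labelled library. Oesophagus and stomach stood above cerebellum for miR-411, and brain was 16.2-fold (14.2 to 18.6) above cerebellum.

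miR-382, miR-134, miR-381 and miR-300 were all higher in cerebellum than in brain. Their hairpins are not contiguous, since that of miR-487b, which was higher in brain, lies between miR-381 and miR-382. miR-382 stood at 2225 in cerebellum, 1032 in brain, 70.3 in oesophagus, 29.5 in stomach, 24.03 in the uterus-labelled library and 10.9 in small intestine. Elsewhere it stood at 4.33 in heart, 8.76 in lung, 3.47 in liver, 1.61 in pancreas, 2.71 in kidney, 8.65 in spleen, 0.441 in ovary and 0 in the colon-labelled library. Cerebellum was 2.16-fold (2.06 to 2.26) above brain.

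miR-134, the regulator of dendritic spines, had the strongest cerebellar excess of the cluster. It reached 2614 RPM (95% interval 2521 to 2709.8) in cerebellum against 388 RPM in brain, 6.73-fold (6.36 to 7.12) apart. In the other libraries it stood at 29.3 in the uterus-labelled library, 24.8 in stomach, 7.17 in small intestine and 5.52 in oesophagus, and at 12.7 in heart, 17.0 in lung, 6.62 in liver, 3.21 in pancreas, 3.25 in kidney, 5.56 in spleen, 2.65 in ovary and 0.749 in the colon-labelled library. All 12 non-neural libraries lay far below brain. Oesophagus, the highest of the 12 for 22 of the 31 members, was not the highest for this one.

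miR-381 stood at 1669 in cerebellum, 876 in brain, 476 in oesophagus, 52.1 in the uterus-labelled library, 48.7 in stomach and 26.7 in small intestine. Its other levels were 6.78 in heart, 6.74 in lung, 2.05 in liver, 1.61 in pancreas, 2.49 in kidney, 3.09 in spleen, 0.441 in ovary and 0.300 in the colon-labelled library. miR-300, its close relative in sequence, stood at 694 in cerebellum, 419 in brain, 49.1 in oesophagus, 15.3 in stomach, 13.7 in the uterus-labelled library and 5.25 in small intestine. Its other levels were 1.73 in heart, 3.37 in lung, 0.946 in liver, 1.61 in pancreas, 0.758 in kidney, 1.65 in spleen, 0 in ovary and 0 in the colon-labelled library. Both had the same order of brain and cerebellum, with cerebellum 1.91-fold (1.81 to 2.01) higher for miR-381 and 1.66-fold (1.53 to 1.80) higher for miR-300.

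Of the other abundant members, miR-376a, miR-380-5p and miR-410 were all higher in brain. miR-376a stood at 448 in brain, 167 in cerebellum, 15.4 in stomach, 4.83 in the uterus-labelled library, 3.05 in oesophagus and 2.03 in small intestine, and at 0.144 in heart, 0.168 in lung, 0.788 in liver, 0 in pancreas, 0.217 in kidney, 1.03 in spleen, 0 in ovary and 0.150 in the colon-labelled library. miR-380-5p stood at 428 in brain, 132 in oesophagus, 130.4 in cerebellum, 18.5 in stomach, 13.2 in the uterus-labelled library and 6.42 in small intestine, and at 2.02 in heart, 4.55 in lung, 1.26 in liver, 1.61 in pancreas, 1.19 in kidney, 2.06 in spleen, 0.441 in ovary and 0 in the colon-labelled library. For miR-380-5p oesophagus and cerebellum did not differ beyond counting error. miR-410, the last hairpin, stood at 471 in brain, 30.0 in cerebellum, 22.5 in oesophagus, 7.82 in stomach, 6.44 in the uterus-labelled library and 4.50 in small intestine, and at 0.577 in heart, 1.18 in lung, 0.473 in liver, 0 in pancreas, 0.542 in kidney, 1.24 in spleen, 0.882 in ovary and 0.150 in the colon-labelled library. Brain exceeded cerebellum by 2.68-fold (2.31 to 3.12) for miR-376a, 3.28-fold (2.78 to 3.91) for miR-380-5p and 15.7-fold (11.2 to 22.7) for miR-410.

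Between brain and cerebellum the members differed widely among themselves. The rule of size counted 15 members as higher in brain, beside 24.6% of all names, and 1 (miR-134) as higher in cerebellum, beside 10.0%. Only 17 members reached 10 RPM in cerebellum and could be counted there, against 27 in brain. Many of the 15 reached 10 RPM in brain alone, so no weight is put on the comparison with these shares. The interval of the fold lay above 1 for 19 members, below 1 for 5 (miR-541, miR-382, miR-134, miR-381 and miR-300) and held 1 for 7. When both libraries were scaled to the same summed level of the cluster, an alternative chosen after the data were seen, the counts were 14 and 1. The share of all names under that scaling is not given. Median-of-ratios factors shifted every log2 difference by -0.34 and leaving out the 5 most abundant names by -0.29, and under either only scarce miR-668 changed direction. The median log2 difference over the 31 members was 1.71, beside 0.458 over all 418 names.

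The largest folds toward brain belonged to miR-380-3p, miR-369-5p and miR-495, each with 3 reads in cerebellum. miR-380-3p stood at 141 RPM in brain and 2.64 in cerebellum, 53.4-fold (18.2 to 259.6) apart, with 2.73 in stomach, 2.48 in oesophagus, 0.963 in small intestine and 0.230 in the uterus-labelled library, and 0.144 in heart, 0.337 in lung, 0.315 in liver, 0 in pancreas, 0.108 in kidney, 0.412 in spleen, 0 in ovary and 0.150 in the colon-labelled library. miR-369-5p stood at 139 and 2.64 RPM, 52.5-fold (17.9 to 255) apart, with 5.33 in oesophagus, 2.49 in stomach, 0.690 in the uterus-labelled library and 0.107 in small intestine, and 0 in heart, 0.168 in lung, 0 in liver, 0 in pancreas, 0 in kidney, 0.618 in spleen, 0 in ovary and 0 in the colon-labelled library. miR-495 stood at 112 and 2.64 RPM, 42.3-fold (14.4 to 205) apart, with 5.52 in oesophagus, 2.96 in stomach, 0.460 in the uterus-labelled library and 0.749 in small intestine, and 0.288 in heart, 0.168 in lung, 0 in liver, 0 in pancreas, 0 in kidney, 0 in spleen, 0 in ovary and 0.150 in the colon-labelled library. Outside brain, then, none of these 3 reached 10 RPM. The wide intervals come from the few cerebellar reads, and 6 members had 3 or fewer there.

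miR-329, whose seed is that of miR-362-3p, had 152 reads in brain and none in cerebellum, which puts brain at least 10.8-fold higher on a floor of 3 reads, while the counting interval of the fold starts at 8.69. miR-496 was 26.7-fold (7.31 to 221) and miR-376c 21.6-fold (9.86 to 59.1) higher in brain. miR-376b was 15.3-fold (10.5 to 23.2), miR-487b 11.95-fold (5.06 to 37.1), miR-154 10.6-fold (4.08 to 39.3) and miR-369-3p 10.3-fold (7.75 to 14.0) higher. miR-323-3p and miR-377 were 6.66-fold (4.06 to 11.7) and 6.44-fold (2.90 to 17.8) higher. The relatives miR-376a and miR-376b, which differ in the seed by G4A, thus had unlike ratios, with intervals that do not overlap.

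The remaining members were mostly scarce. miR-409-3p (63.2 and 41.4 RPM in brain and cerebellum) and miR-409-5p (45.3 and 20.3) were 1.53-fold (1.12 to 2.12) and 2.24-fold (1.46 to 3.60) higher in brain. The intervals of miR-299, miR-667, miR-668, miR-485, miR-758, miR-543 and miR-494 held 1. Their brain levels ran from 4.33 RPM for miR-494 to 26.9 for miR-299, so a difference of moderate size was not detectable at this depth. An interval that holds 1 is not parity, as for miR-494, 4.91-fold (0.797 to 202) toward brain on 1 cerebellar read.

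**Figure D3:**
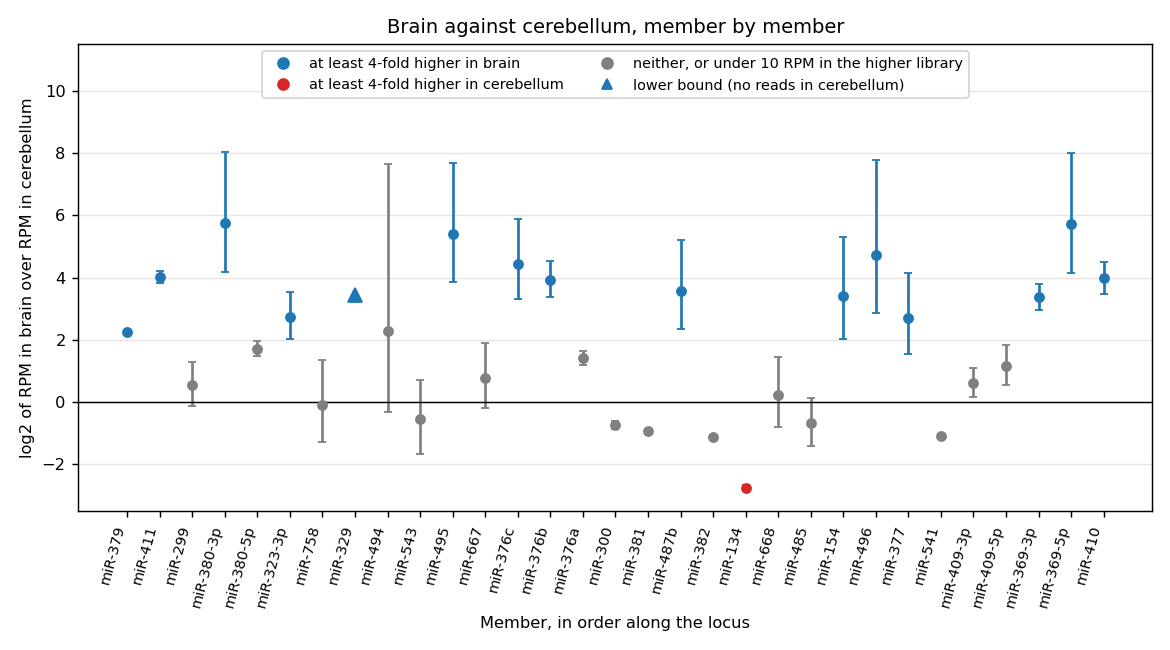
Points give log2 of the RPM in brain over that in cerebellum for the 31 members in order along the locus, with 95% counting intervals, and a triangle marks a lower bound. Members above 0 are higher in brain. The 5 members whose intervals lie below 0 are miR-300, miR-381, miR-382, miR-134 and miR-541.

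Position along the cluster did not order these differences, since Spearman's rho between distance from the first hairpin and the log2 difference was -0.127 over 27 members, given as a description. Base composition went along with them more closely. For the 24 members with a sequence and at least 10 RPM, rho between the GC content of the mature sequence and the log2 difference was -0.587. The 13 members counted as higher in brain by the rule of size for which a sequence was found had a median GC content of 40.9%. By the same rule only miR-134 was higher in cerebellum, and 10 members were higher in neither library, with a median of 46.6%. The 5 members higher in cerebellum by any size, most of them among those 10, had 50%. The groups of 13 and 5 thus follow unlike thresholds. All points share the same 2 libraries, and members that share a hairpin are not independent.

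The lowest GC content was that of miR-369-3p, 23.8%, and miR-134 had 59.1%, as the letters above show. There were exceptions. miR-541 (44.0%) was higher in cerebellum at a GC content below that of miR-379 and miR-411 (both 47.6%). miR-369-5p (45.5%) was among those furthest toward brain, and miR-154 (50%) and miR-323-3p (52.4%) were also counted as higher in brain. The relation over names outside the cluster is not given. The part of base composition in the brain to cerebellum differences was not tested.

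**Figure D4:**
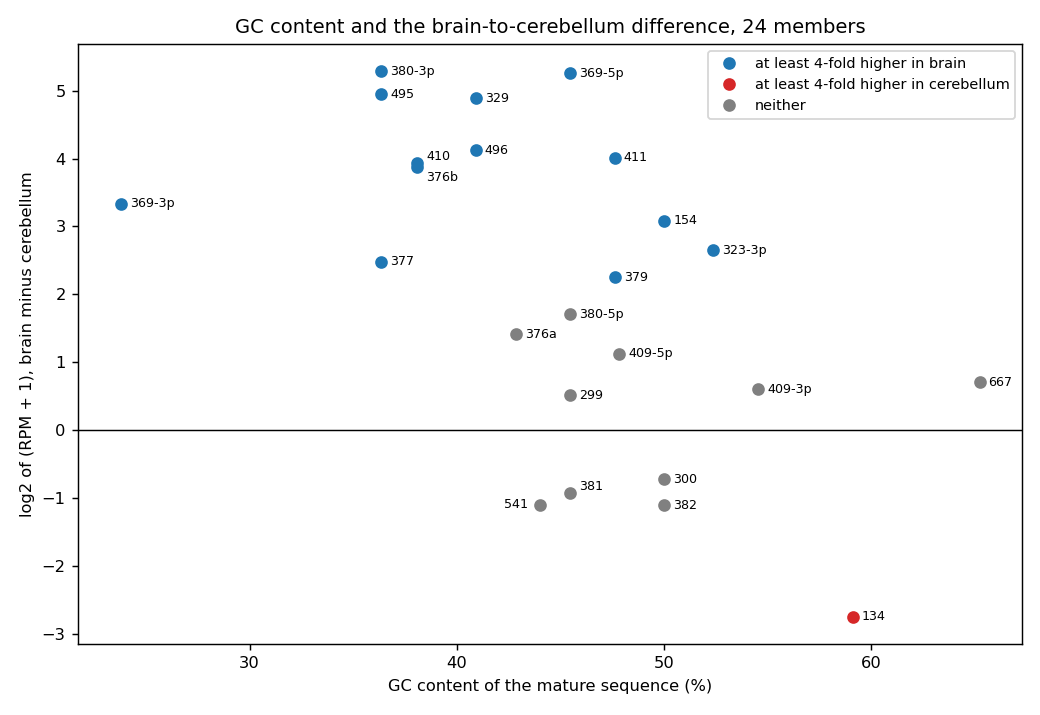
Each point is 1 of the 24 members with a RefSeq sequence and at least 10 RPM in brain or cerebellum, the x axis gives GC content in percent and the y axis the difference of log2(RPM + 1), brain minus cerebellum. Points run from miR-369-3p at 23.8% to miR-667 at 65.2%, and miR-134 lies lowest, at a GC content of 59.1%.

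Other cell types were followed with the fixed marker lists. The 3 striated muscle names summed to 9216 RPM in cerebellum and 3631 in brain, mostly miR-206 (7143 RPM) in the first and miR-1 (3160.4 RPM) in the second. The 3 acinar names summed to 137 and 112 RPM, the 4 leukocyte names to 48.5 and 219, and the 2 erythroid names to 26.4 and 96.1. Hepatocyte miR-122 stood at 121 and 82.2 RPM, and among all these names miR-223 was without reads in cerebellum. Of the 10 neural names, 6 were higher in brain than in cerebellum by the rule of size, beside 24.6% of all names. By that rule 1 (miR-129-5p) was higher in cerebellum, beside 10.0%. Neural miR-124 stood at 5506 RPM in brain and 20760 in cerebellum, 3.77-fold (3.71 to 3.84) higher in cerebellum and just under the rule. The part of these markers in the differences within the cluster was not tested.

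The make-up of the cluster within a library does not depend on how libraries are scaled. In brain miR-379 held 48.0% (47.7 to 48.2%) of the cluster's 142686 reads, miR-541 18.7% and miR-411 11.6%. In cerebellum miR-541 held 50.2% (49.5 to 50.8%) of 24266 reads, miR-379 12.6%, miR-134 12.2% and miR-382 10.4%. Oesophagus had a pattern of its own, with miR-541 at 36.8%, miR-411 at 27.9% (27.3 to 28.5%), miR-381 at 12.7% and miR-379 at 10.99%. In stomach miR-411, miR-379 and miR-541 were nearly even, at 29.8%, 27.3% and 26.4%.

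In 9 of the other 10 libraries miR-379 was the most abundant member, with the highest share in pancreas at 73.0% (67.8 to 77.8%) of 322 reads and in lung at 63.0% (61.5 to 64.6%) of 3814. The library labelled colon was led by miR-541 with 43.0%, on 158 reads. Together miR-379, miR-411 and miR-541 held from 63.7% of the cluster's reads in cerebellum to 97.5% in pancreas.

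**Figure D5:**
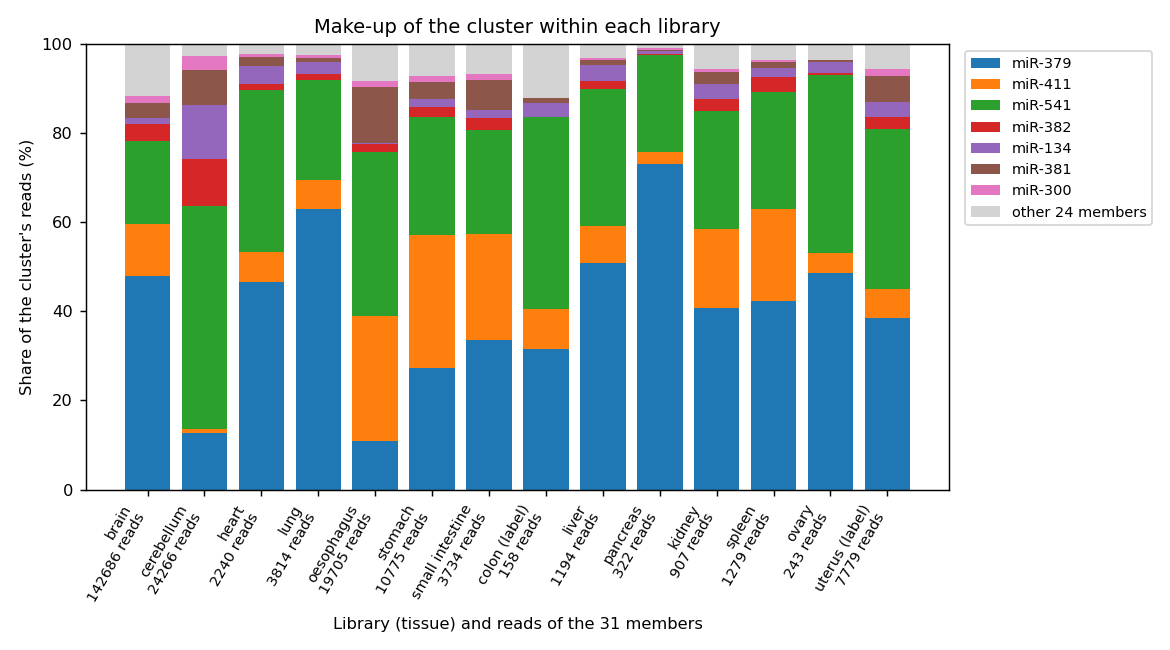
Bars divide the reads of the 31 members in each library among 7 members and the remaining 24, in percent, with the number of reads under each bar. miR-379 (bottom segment) is tallest in pancreas and lung and short in oesophagus and cerebellum, where miR-541 holds more.

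The neighbours miR-379 and miR-411 lie 1.12 kb apart, and their ratio differed between libraries. Of the reads of this pair, miR-411 held 71.8% (70.7 to 72.8%) in oesophagus, 52.2% (50.9 to 53.4%) in stomach and 41.3% (39.2 to 43.4%) in small intestine. Spleen and kidney had 32.8% (29.6 to 36.2%) and 30.2% (26.3 to 34.3%). Brain had 19.4% (19.2 to 19.7%), while cerebellum had 6.63% (5.80 to 7.53%) and pancreas 3.69% (1.70 to 6.89%). Heart, lung, liver, ovary and the library labelled uterus lay between 8.53% and 14.7%. The intervals of oesophagus, stomach and small intestine overlapped neither each other nor those of the remaining libraries.

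The pair miR-134 and miR-382, whose hairpins are adjacent, showed a similar spread. miR-134 held 54.0% (52.7 to 55.3%) of their reads in cerebellum, 27.4% (26.3 to 28.4%) in brain and 7.29% (4.93 to 10.3%) in oesophagus. It held 74.6% (65.7 to 82.1%) in heart and 66.0% (57.9 to 73.5%) in lung. For miR-300 and miR-381 the neural libraries were alike, with miR-300 at 32.3% (31.2 to 33.5%) in brain and 29.4% (27.6 to 31.1%) in cerebellum, and oesophagus again stood apart at 9.36% (8.30 to 10.5%).

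Among the 12 non-neural libraries, oesophagus was highest for 21 of the 27 members at 10 RPM or more in some library, beside 25.4% of all names, and stomach for 4, beside 7.42%. Only 11 members reached 10 RPM in oesophagus itself, so many of these maxima are low. miR-667 is among the 21 on 1 read in oesophagus (0.190 RPM). When miR-143 was left out of the totals, oesophagus was highest for 10 of 25 members (beside 9.71% of names) and stomach for 9 (beside 15.5%). With median-of-ratios factors these counts were 13 of 25 (beside 11.2%) and 3 (beside 6.58%). The members with the highest oesophageal levels were miR-541, miR-411, miR-381, miR-379 and miR-380-5p (1379, 1048, 476, 412 and 132 RPM). The striated muscle names summed to 322337 RPM in oesophagus and 319931 in heart, with skeletal muscle miR-206 at 42616 and 26.0 RPM. The neural names summed to 636 RPM in oesophagus, the highest of the 12, and to 60.6 in heart. The part of either cell type in the oesophageal level of the cluster was not tested.

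Both arms were listed for 3 of the hairpins, and their ratio was not the same in all libraries. miR-380-5p held 75.2% (73.6 to 76.7%) of the reads of its hairpin in brain, 98.0% (94.3 to 99.6%) in cerebellum and 98.2% (96.9 to 99.0%) in oesophagus. miR-369-3p held 75.9% (74.3 to 77.4%) in brain, 94.1% (83.8 to 98.8%) in cerebellum and 88.4% (83.7 to 92.2%) in oesophagus. For miR-409-3p the shares were 58.2% (54.1 to 62.3%), 67.1% (54.9 to 77.9%) and 40.8% (29.6 to 52.7%). Brain held more of the minor arm than cerebellum and oesophagus did for the first 2 hairpins, with intervals that do not overlap, and the intervals of brain and cerebellum overlapped for the third. Stomach differed by hairpin, with 87.2% (81.3 to 91.7%) for miR-380-5p, 77.9% (68.2 to 85.8%) for miR-369-3p, close to brain, and 75.7% (64.0 to 85.2%) for miR-409-3p, above brain.

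The star names and arm-suffixed names of the cluster complete the picture. Of 31 hairpins with 20 or more reads over both arms in brain, the listed or first arm held over 90% in 18, and under 50% in 4. Those 4 were miR-376b at 24.9% (23.9 to 25.8%), miR-329 at 33.1% (28.8 to 37.6%), miR-667 at 37.2% (30.7 to 44.0%) and miR-543 at 48.3% (35.2 to 61.6%), chosen for this value. miR-376b* had 5845 reads in brain against 1933 for miR-376b. In oesophagus the listed arm of miR-376b held 3.62% (1.99 to 6.00%) and that of miR-376a 21.6% (12.9 to 32.7%), against 79.5% (78.0 to 80.9%) for miR-376a in brain. In cerebellum miR-329* had 59 reads although miR-329 had none.

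The 3 listed names found only with an arm suffix are given here beside the members. miR-539-5p stood at 70.5 RPM in brain, 11.46 in cerebellum and 15.4 in oesophagus. miR-412-5p stood at 16.9 RPM in brain and 17.6 in cerebellum, which counting error does not separate. miR-679-5p stood at 9.03 and 29.1 RPM, so cerebellum was 3.22-fold (2.003 to 5.12) higher. Of the 33 other arm and hairpin names of the cluster found, 10 reached 10 RPM in some library, and all 10 did so in brain. By the rule of size all 10 were higher than the non-neural median in brain, beside 53.3% of all names, and 5 in cerebellum, beside 44.3%. The minimum level largely fixes the first of these counts.

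The proximal part of the same locus, from miR-770 to miR-370 and including the miRNAs antisense to Rtl1, was set beside the cluster with 18 names. Of the 12 at 10 RPM or more, 11 were higher than the non-neural median in brain and 11 in cerebellum, beside 53.3% and 44.3% of all names. Between the neural libraries 1 was higher in brain and 2 (miR-127 and miR-370) in cerebellum, beside 24.6% and 10.0%. miR-127 stood at 12234 RPM in brain and 49447 in cerebellum, 4.04-fold (3.996 to 4.09) apart. miR-434-3p stood at 7339.9 and 8335 RPM, miR-136 at 1086 and 965, and miR-434-5p at 253 and 321. miR-370 stood at 92.5 and 453 RPM, 4.90-fold (4.32 to 5.55) apart, and miR-770-3p at 129 and 199. Of these abundant proximal names, miR-434-3p, miR-136, miR-434-5p and miR-770-3p differed less between the neural libraries than most of the cluster did. Some scarcer proximal names differed widely and in both directions. miR-673-5p was 4.51-fold (2.60 to 8.59) higher in brain and miR-673-3p 3.95-fold (1.90 to 8.10) higher in cerebellum. miR-337-3p had 47 reads in brain and 0 in cerebellum, while miR-337-5p was only 1.38-fold (1.12 to 1.70) higher in brain. The contrast is thus limited to the abundant names given, and the 18 names include no star names. miR-136* of the same region stood at 642 RPM in brain and 70.5 in cerebellum.

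Of the reads of both parts of the locus, the miR-379 to miR-410 cluster held 55.6% (55.4 to 55.8%) in brain and 26.3% (26.0 to 26.5%) in cerebellum. Its share was 54.3% (53.6 to 55.0%) in stomach, 59.2% (58.0 to 60.5%) in small intestine, 70.2% (69.6 to 70.7%) in oesophagus, 82.1% (80.0 to 84.1%) in liver and 81.5% (77.3 to 85.2%) in pancreas. Cerebellum had the lowest share of the 14 libraries, and this rested on miR-127. Without it the cluster held 66.8% in cerebellum and 74.4% in brain, and the lowest share was that of the library labelled colon with 52.7%.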

How the data were processed

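Small RNA libraries of 14 tissues, 1 per tissue, were analysed from one table of unscaled counts, whole reads for each mature miRNA name, that the authors deposited. Per the labels' protocols, RNA was extracted with Trizol, pooled over mice and prepared by Illumina's standard procedure. The trimming tool, aligner, miRNA reference or genome build is not given in the sources used here. Totals ran from 622132 to 9341000 reads. Groups follow the tissue labels, and all 14 columns matched a label by name.

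Counts were divided by the library total to give RPM. Intervals are exact Poisson (levels), Clopper-Pearson (shares) and conditional binomial (folds), at 95%, and cover counting error only, since the table holds reads and not molecules. With 1 library per tissue no test was run. The rule of size was 4-fold after adding 1 RPM, with 10 RPM as the minimum of the higher level, over the 418 names that reached 10 RPM anywhere. It was tried on simulated counts for the brain and cerebellum pair only, with counting error and no difference in preparation. The rule against the median of the 12 libraries was not simulated. Other scalings (median-of-ratios over 162 names, totals less miR-143, totals less the 5 top names) were set to the same geometric mean as the totals. Other alternatives were pseudocount, fold, minimum level, left-out libraries and repeated names. Named were all members, the 10 most abundant in full, the 3 largest folds per direction, 6 proximal names and the 5 names most alike in profile. Members and lists were chosen with earlier results of these data known. Sequences are RefSeq's (GRCm38.p6), matched for 28 of 31 members. Python 3.11.15, pandas 2.3.3, numpy 2.4.6, SciPy 1.17.1 and matplotlib 3.10.9 were used.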

Additional observations from a re-analysis of the deposited data

How the results depend on the processing

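Scaling changed sizes more than directions. The summed level in brain over the non-neural median was 23.6 with median-of-ratios factors, 33.8 when miR-143 was left out of totals, 18.1 when each library's 5 most abundant names were, and 67.1 without the libraries labelled colon, ovary and pancreas, against 74.3. For cerebellum the same settings gave 23.8, 26.5, 17.7 and 53.5, against 59.2. The cause was not tested. The 17 members higher in cerebellum than that median became 10 of 24 (beside 30.1% of names) when those 5 names were left out of totals. They became 11 with a pseudocount of 10 RPM and 9 at a minimum of 50 RPM, with no share of all names given. With 8-fold in place of 4-fold, 0 members were higher in cerebellum than in brain, against 1. Without miR-300, miR-381 and the miR-376 names, an alternative chosen after the data were seen, the denominators shrank and the shares were 52.3% for miR-379 in brain, 57.0% for miR-541 in cerebellum and 32.6% for miR-411 in oesophagus. Of the 28 members with a sequence, no 2 differed at 2 or fewer positions, so that planned exclusion removed none. The 21 members highest in oesophagus among the 12 non-neural libraries became 13 with median-of-ratios factors and 10 when miR-143 was left out of totals. They became 11 of 24 (beside 11.7% of names) when the 5 top names were left out. The 4 highest in stomach became 3, 9 and 7, the last beside 13.3% of names. The counts of members higher in brain, or with their highest level there, stayed within 1.5 times their value. Depth limits cerebellum and pancreas most. No paired analysis was possible because each tissue has 1 library.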

Other observations

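The names outside the locus lists whose profile over the 14 libraries was most like the summed level of the cluster were miR-338-5p, miR-136*, miR-666-5p, miR-1224 and miR-3099. Pearson's r on log2(RPM + 1) was 0.935, 0.932, 0.908, 0.907 and 0.898, over points that share their libraries and totals. Among them miR-136* and miR-666-5p come from hairpins of the same imprinted region. miR-338-5p stood at 452 RPM in brain, 481 in cerebellum and 83.6 in oesophagus. miR-3099 stood at 386, 422 and 8.57 RPM. Over the 27 members at 10 RPM or more, which enter the sum, r ran from 0.642 for miR-329 to 0.989 for miR-541, and the median over all 418 names was 0.606.

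Ovary and the library labelled colon differed from the rest in the proximal part of the locus. miR-434-3p stood at 48.1 RPM in ovary and 20.2 in the library labelled colon, against 11.03 and 5.10 RPM for miR-127, whereas miR-127 exceeded miR-434-3p in the other 12 libraries. This pair was singled out after its values were seen.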
